A study of Mus musculus with 2 samples.

Results

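Mgl2 and Cd209a cells are a small myeloid population found among lung cells of mice that had been sorted for the epithelial surface protein EpCAM. The cells were selected on transcripts: a barcode needed at least 2 UMIs (unique molecular identifiers, each standing for 1 captured transcript) over Mgl2 and Cd209a together. It also needed at least 500 detected genes, at most 20% mitochondrial UMIs and Sftpc, the surfactant protein C gene of alveolar type II (AE2) cells, under 5% of gene UMIs. At most 1 gene of each of 3 sets could be detected, namely Xcr1, Itgae, Clec9a and Cd207, then Ccr7, Fscn1 and Ccl22, then Ear1, Ear2 and Marco. This gave 156 cells of 11245 barcodes that passed the filters on genes and mitochondrial UMIs, out of 14048 deposited barcodes.

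The 8 libraries came from C57BL/6JRj mice in 4 groups: old (18 months) with LPS, young (3 months) with LPS, old control and young control. LPS, bacterial lipopolysaccharide, was given at 2.5 mg/kg, controls received saline, and all lungs were taken 24 h later. Cells of each group were tagged with a hashtag antibody of their own, mixed with those of the other groups and run on 1 droplet lane. An independent repeat of the whole experiment gave lane 2, and the number of a library below is its lane. The lungs had been lavaged before digestion and the agarose-filled airways were cut away, steps that take away part of the cells of the airspace and the large airways. How many mice were pooled for a library is not stated. Library totals were 6228266 to 15435789 UMIs, and the 156 cells held 886076 UMIs with a median of 5471 per cell (range 1303 to 20425).

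Dendritic cells take up antigen, cut it into peptides and show these to T cells on MHC class II molecules. Conventional dendritic cells fall into a type 1 lineage, which depends on the transcription factor Irf8 and bears Xcr1 and Clec9a, and a type 2 lineage, which depends more on Irf4 and in part on Klf4 and bears Sirpa and Itgam (CD11b). Mgl2 (CD301b) and Cd209a (a mouse relative of human DC-SIGN) are C-type lectins, surface receptors that bind sugars on microbes and host glycoproteins, and in the mouse both are used as markers of type 2 dendritic cells and of some monocyte-derived cells. In the lung such cells lie beneath the airway epithelium and in the interstitium, and those that have taken up antigen acquire Ccr7 and move to the draining lymph node.

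Mgl2 lies on chr11:70130329-70137550 on the plus strand of GRCm38 (GENCODE M21), next to its relative Clec10a at chr11:70156197-70170834, also on the plus strand. Cd209a lies on chr8:3743397-3748984 on the minus strand, in a group with Cd209d at chr8:3871824-3878555 and Cd209b at chr8:3917655-3926844, both on the minus strand. The bases upstream of the 2 genes that chose the cells are shown because their transcripts defined the cells. Both sequences are from RefSeq, build GRCm38.p6, read on the strand of the gene; capitals mark GGAAGT, the core of sequences bound by ETS-family factors such as PU.1 (Spi1), searched on both strands.
Mgl2, chr11:70130107-70130328, plus strand: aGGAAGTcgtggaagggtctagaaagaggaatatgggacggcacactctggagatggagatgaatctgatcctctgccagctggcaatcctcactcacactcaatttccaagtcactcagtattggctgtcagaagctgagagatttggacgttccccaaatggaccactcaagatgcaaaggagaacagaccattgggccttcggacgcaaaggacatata
Cd209a, chr8:3748985-3749234, minus strand: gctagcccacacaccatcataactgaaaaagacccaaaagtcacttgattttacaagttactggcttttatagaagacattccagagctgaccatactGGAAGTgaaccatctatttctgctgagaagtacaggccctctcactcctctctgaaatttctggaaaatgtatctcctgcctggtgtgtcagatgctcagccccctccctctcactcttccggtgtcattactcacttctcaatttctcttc
Each window held 1 match, 249 bases before the RefSeq start of Mgl2 and 152 bases before that of Cd209a, and 6485 of all 32851 upstream windows of 250 bases (19.7%) held at least 1. The longer PU.1-type sequence GAGGAAGT, which contains GGAAGT, was in neither window and in 2.44% of all windows. The sequence CACCC, as bound by Klf-type factors, was in neither window and in 52.0% of all windows. A match is a description of the letters and no evidence of binding.

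Most of the cells carried both lectin transcripts. Of the 156 cells, 133 (85.3%) had UMIs of both genes, 21 (13.5%) of Mgl2 without Cd209a and 2 (1.28%) of Cd209a without Mgl2. The summed count had a median of 17.5 UMIs and a maximum of 50, and 122 cells (78.2%) had at least 10, far inside the limit of 2. Just inside the limit lay 4 cells with 2 UMIs, all from control lungs, in which MHC class II genes made up a median of 7.29% of UMIs. Just outside lay 20 barcodes with 1 UMI, 15 of them from LPS lungs and 5 from control lungs, with a median of 1.02%. All 156 cells had a median of 7.35%.

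**Figure D1:**
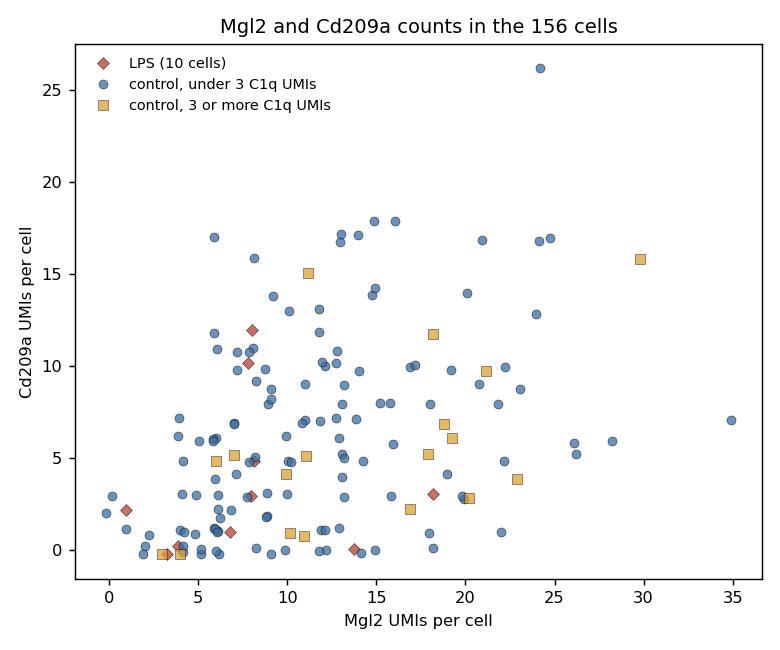
UMIs of Mgl2 (horizontal axis) and Cd209a (vertical axis) in each of the 156 cells, with a small random offset so that overlapping points can be seen; diamonds are the 10 cells of LPS lungs, circles and squares the 146 cells of control lungs, and squares the 18 control cells with at least 3 UMIs of C1qa, C1qb and C1qc together. Both lectins were found in 133 cells, and the cells with C1q transcripts lay across the range of the other control cells.

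Level values below are CPM, the counts of a gene scaled to a fixed total of 1000000 gene UMIs over the summed cells of a library. Mgl2 stood at 1489 CPM in the pooled 10 cells of LPS lungs, against 1805, 1982, 2145 and 2209 CPM in the cells of old control 1, old control 2, young control 1 and young control 2. Cd209a stood at 678 CPM after LPS, against 863, 1081, 1256 and 1156 CPM in the same control libraries. Both genes set the gate, so these are descriptions. The pooled control values in the other cells were 40.4 CPM of Mgl2 in 235 Xcr1/Clec9a cells (at least 2 of Xcr1, Itgae, Clec9a and Cd207), 49.5 CPM in 26 Ccr7/Fscn1 cells (at least 2 of Ccr7, Fscn1 and Ccl22), 1.15 CPM in 360 Ear/Marco cells (at least 2 of Ear1, Ear2 and Marco) and 1.95 CPM in 4079 Sftpc-high barcodes, those with Sftpc at 5% or more.

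Markers that the gate did not use were those of myeloid cells. Ptprc, the pan-leukocyte phosphatase CD45, was detected in 92.5% of the 146 control cells, and Tyrobp, a signalling adaptor of myeloid receptors, in 99.3%. Cd74, the MHC class II invariant chain, was detected in 100% and averaged 31826 ± 2216 CPM (SD, n = 4 control libraries). H2-Ab1, a class II beta chain, averaged 13418 ± 942 CPM. Of the type 2 list, Sirpa, an inhibitory receptor for CD47, was detected in 46.6% of the cells and averaged 131 ± 39.2 CPM, and Itgam in 41.8% at 86.1 ± 44.7 CPM. Irf4 was detected in 33.6% of the cells at 87.9 ± 30.1 CPM, Klf4 in 73 cells at 151 ± 23.3 CPM and Zeb2, a repressor active in monocytes and type 2 dendritic cells, in 44.5% at 148 ± 55.7 CPM. Zbtb46, a factor of the conventional dendritic lineage, averaged 50.9 ± 20.2 CPM and Flt3, the receptor for the dendritic growth factor FLT3L, 25.3 ± 17.1 CPM.

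Several markers of circulating blood cells were at 0. Of the 12 genes of the classical monocyte list, 4 had 0 UMIs in the 833003 UMIs of the control cells, which allows up to 4.43 CPM (exact 95% Poisson limit), Ly6c2, Vcan and Plac8 of circulating monocytes among them. Lists of other cells had 0 UMIs for 6 of 9 T cell genes, Cd3e among them, 6 of 7 NK cell genes, 7 of 10 neutrophil genes, S100a8 and S100a9 among them, and 7 of 8 basophil and mast cell genes. S100a4, a calcium-binding protein of motile cells on the classical monocyte list, was in contrast detected in 97.3% of the cells at 2122 ± 403 CPM. Ccr2, the chemokine receptor that brings monocytes and dendritic cell precursors into tissue, was detected in 53.4% at 352 ± 178 CPM, and Ms4a4c and Cd14 of the same list stood at 51.6 CPM each, pooled. Ighm, the IgM heavy chain, was found in 43.2% of the cells at 112 CPM pooled, beside 129 CPM in Xcr1/Clec9a cells and 92.6 CPM in Sftpc-high barcodes, of which 0.466% held an Ighm UMI. With every cell thinned to 1500 UMIs it was detected in 15.9% of Mgl2 and Cd209a cells, 19.9% of Xcr1/Clec9a cells and 0.247% of Sftpc-high barcodes. In 3 control libraries it had 86 UMIs in Mgl2 and Cd209a cells and 0 in Ear/Marco cells, at least 16.6-fold higher.

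Transcripts of epithelium were present as well, in cells that came from an EpCAM sort. Epcam was detected in 54.1% of the control cells. With every cell thinned to 1500 UMIs the share was 17.9% in Mgl2 and Cd209a cells, against 28.1% in Xcr1/Clec9a cells, 28.0% in Ear/Marco cells and 27.1% in Sftpc-high barcodes. Napsa, an aspartic protease of AE2 cells and of some dendritic cells, stood at 815 CPM pooled, against 478 CPM in Xcr1/Clec9a cells, 70.2 CPM in Ear/Marco cells and 2675 CPM in Sftpc-high barcodes. Scgb1a1, the club cell secretory protein, made up a median of 0.0712% of UMIs but at least 1% in 7 control cells, 4 of old control 1, 2 of young control 1 and 1 of young control 2. A single cell of old control 1 held 8518 of the 12599 Scgb1a1 UMIs, with 1.52% MHC class II UMIs and 0 of Ptprc, and without the 7 cells the Scgb1a1 level was 971 CPM in place of 15125 CPM. The comparisons below that change when these 7 cells are left out are named, an alternative chosen after seeing the data.

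The lectins Mgl2 and Cd209a were accompanied by others of their families. Clec4b1, a C-type lectin of the Dectin-2 cluster, was detected in 63.7% of the control cells at 219 ± 32.2 CPM. Clec10a, the relative of Mgl2 next to it on chromosome 11, was detected in 28.1% at 84.0 ± 29.0 CPM, and Cd209b, a relative of Cd209a on chromosome 8, in 21.9% at 106 ± 52.5 CPM. Mrc1, the mannose receptor, was detected in 43.2% at 176 ± 49.4 CPM, against 790 CPM pooled in Ear/Marco cells. Reads of such relatives may be shared where their sequences are near identical, and how the counting treated these was not given in the sources used here.

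Besides the 2 lectins, the genes with the highest ratio to all other filtered barcodes of control lungs, among those with at least 100 CPM, were led by Mmp12 (macrophage elastase), Cd209b, Cd72, Hpgd, S100a4 and Ltb. Mmp12 was at 126, 640, 106 and 243 CPM in old control 1, old control 2, young control 1 and young control 2, highest in old control 2, which had 8 cells. Cd72, a receptor best known from B cells, averaged 137 ± 42.7 CPM (n = 4). Hpgd, which breaks down prostaglandins, averaged 326 ± 89.6 CPM, and Ltb, lymphotoxin beta, 103 ± 13.1 CPM. The next ranks held Ms4a6c (293 ± 57.3 CPM), the MHC class II peptide editor gene H2-DMb2 (475 ± 66.2 CPM), the octamer-binding factor Pou2f2 (157 ± 49.6 CPM), the inhibitory receptor Cd300a (135 ± 19.9 CPM), Lmo1 (219 ± 17.0 CPM), Wfdc17 (821 ± 367 CPM) and Ly86, the MD-1 partner of the receptor CD180 (439 ± 31.9 CPM). These genes describe gated cells against the rest, most of them Sftpc-high barcodes, and carry no test. They need not set the cells apart from other myeloid cells. Of the genes named here S100a4 alone was higher in another gated population, at 3080 CPM pooled in Ccr7/Fscn1 cells against 2006 CPM. That difference was not called (edgeR adjusted p = 0.160). Lmo1 and Ly86 stood at 102 and 182 CPM pooled in Xcr1/Clec9a cells, against 218 and 433 CPM in Mgl2 and Cd209a cells.

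**Figure D2:**
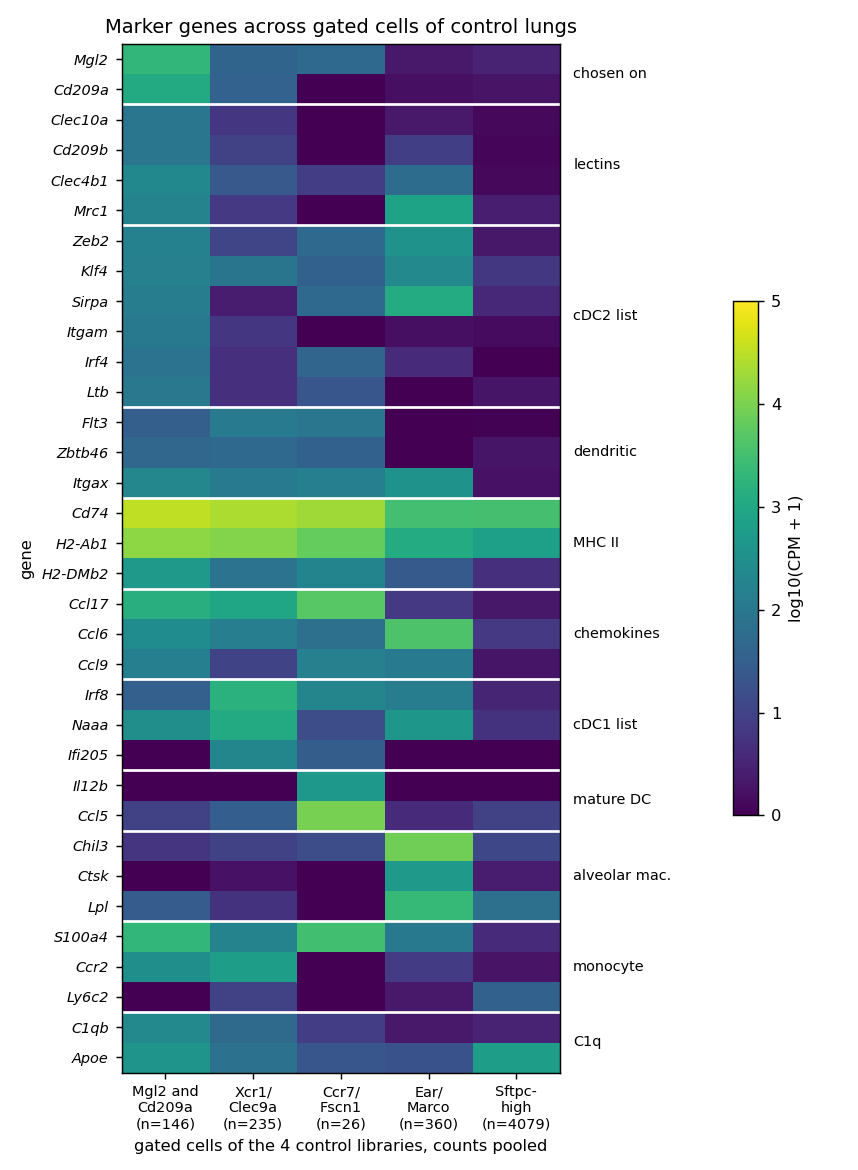
Colour gives log10(CPM + 1) of each gene (rows) in the pooled control cells of 5 gated populations (columns), from 0 (dark) to 5 (light), with the number of cells under each name. The Mgl2 and Cd209a column is light for MHC class II genes and S100a4 and dark for Ly6c2, Chil3, Ctsk and Il12b.

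The genes whose levels ran most like Mgl2 across populations were found by Pearson correlation of log2(CPM + 10) over 15 points, each the summed cells of 1 population in 1 control library (3 points of Mgl2 and Cd209a cells, 4 each of Xcr1/Clec9a, Ear/Marco and Sftpc-high). Cd209a came first (r = 0.987), then Cd72 (0.984), B4galt6 (0.976), Pou2f2 (0.976), Ms4a4c (0.972) and Itgam (0.969). For Cd209a the order was Pou2f2 (0.987), Mgl2 (0.987), Cd72 (0.978), Prkcb (0.969) and B4galt6 (0.958). Points of 1 library share its suspension and free RNA, and the 3 high points of Mgl2 and Cd209a are the gated cells themselves, so the values describe and are not tested.

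The 146 control cells differed among themselves in complement C1q. At least 3 UMIs of C1qa, C1qb and C1qc together were found in 18 cells, 3 in old control 1, 1 in old control 2, 6 in young control 1 and 8 in young control 2, a cut chosen after the values were seen and not tested. Apoe, an apolipoprotein of macrophages, stood at 2852 CPM in these 18 cells and 12.5 CPM in the other 128, but single cells held 82 of its 86 UMIs in old control 1, 104 of 108 in young control 1 and 128 of 132 in young control 2. Csf1r, the macrophage growth factor receptor, stood at 243 and 91.4 CPM, and Ccr2 at 657 and 248 CPM. The lectins and class II genes lay close in both sets, with Mgl2 at 2321 and 2046 CPM, Cd209a at 909 and 1148 CPM and Cd74 at 30409 and 32961 CPM. Apoe was detected in 6 of the 18 cells and Mrc1 in 13, so neither was found in every cell of the 18.

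The first cells set against them were Xcr1/Clec9a cells, gated on genes of type 1 dendritic cells. UMIs of both populations were summed within each control library in which each had at least 10 cells (old control 1, young control 1 and young control 2), and the library was kept as a block; values are TMM-scaled CPM, that is CPM after a scaling that evens out differences in composition between summed libraries. Mgl2 and Cd209a cells had higher lectin, Fc receptor, cathepsin and class II chain transcripts and lower transcripts of Irf8 and of the type 1 list. edgeR's quasi-likelihood test with Benjamini-Hochberg adjustment called 660 of 3595 genes (18.4%) at an adjusted p under 0.05, of which 355 (9.87%) were higher in Mgl2 and Cd209a cells and 305 (8.48%) lower, with a median log2 fold change over all genes tested of -0.01. Without young control 2 the count was 239, and DESeq2's Wald test called 286. The genes of the gates were left out of these counts.

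The type 2 list was higher as a group, with 7 of its 8 tested genes higher and Notch2, a receptor of dendritic cell development, lower, and a median log2 fold change of 4.52. The list holds 12 genes. The gates chose 1 population on markers of type 2 cells and the other on type 1 genes, so this direction was largely set in advance. Sirpa, Zeb2 and Irf4 were near 0 in Xcr1/Clec9a cells and passed the filter on low counts through Mgl2 and Cd209a cells. Sirpa was at 97.9, 144 and 139 TMM-scaled CPM in Mgl2 and Cd209a cells of old control 1, young control 1 and young control 2, against 1.74, 0 and 2.93 in their Xcr1/Clec9a cells (log2 fold change 5.70, SE 0.49, edgeR adjusted p = 7.41e-08). Zeb2 was at 116, 247 and 158 TMM-scaled CPM, against 8.71, 0 and 0 (log2 fold change 4.95, SE 0.47, edgeR adjusted p = 2.68e-07). Irf4 was at 116, 53.5 and 89.1 TMM-scaled CPM, against 5.23, 0 and 2.93 (log2 fold change 4.59, SE 0.48, edgeR adjusted p = 8.9e-07). In each of these genes all 3 libraries gave the same direction and the populations did not overlap. Klf4 moved least of the 7, with 147, 152 and 172 TMM-scaled CPM against 101, 70.4 and 102 (log2 fold change 0.75, SE 0.21, edgeR adjusted p = 0.0175).

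All 10 tested genes of the type 1 list were lower, with a median of -3.71. The gates chose Xcr1/Clec9a cells for type 1 genes and kept such cells out of the others, so this direction was largely set in advance. Genes at 0 UMIs in Mgl2 and Cd209a cells were tested only because Xcr1/Clec9a cells held them. Irf8 was at 104, 12.3 and 23.1 TMM-scaled CPM in Mgl2 and Cd209a cells of old control 1, young control 1 and young control 2, against 1658, 1733 and 1702 in Xcr1/Clec9a cells (log2 fold change -5.45, SE 0.38, edgeR adjusted p = 0.00097). Naaa, an acid amidase, was at 324, 288 and 337 TMM-scaled CPM, against 1218, 1337 and 1228 (log2 fold change -1.98, SE 0.10, edgeR adjusted p = 6.3e-11). Ifi205 and Gcsam had 0 UMIs in Mgl2 and Cd209a cells of the 3 libraries, against 227 and 141 UMIs in Xcr1/Clec9a cells, at least 50.5-fold and 31.4-fold lower (taking 3 UMIs over the 3 libraries as the floor). Batf3, a partner of Irf8, was lower by less, at a log2 fold change of -0.85 (SE 0.22, edgeR adjusted p = 0.0111). Of the genes shared by both dendritic lineages, 1 of 10 was higher (Itgax) and 5 were lower, among them Flt3 at -1.70 (SE 0.29, edgeR adjusted p = 2.28e-04) and Cst3 at -0.82 (SE 0.05, edgeR adjusted p = 8.84e-10).

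**Figure D3:**
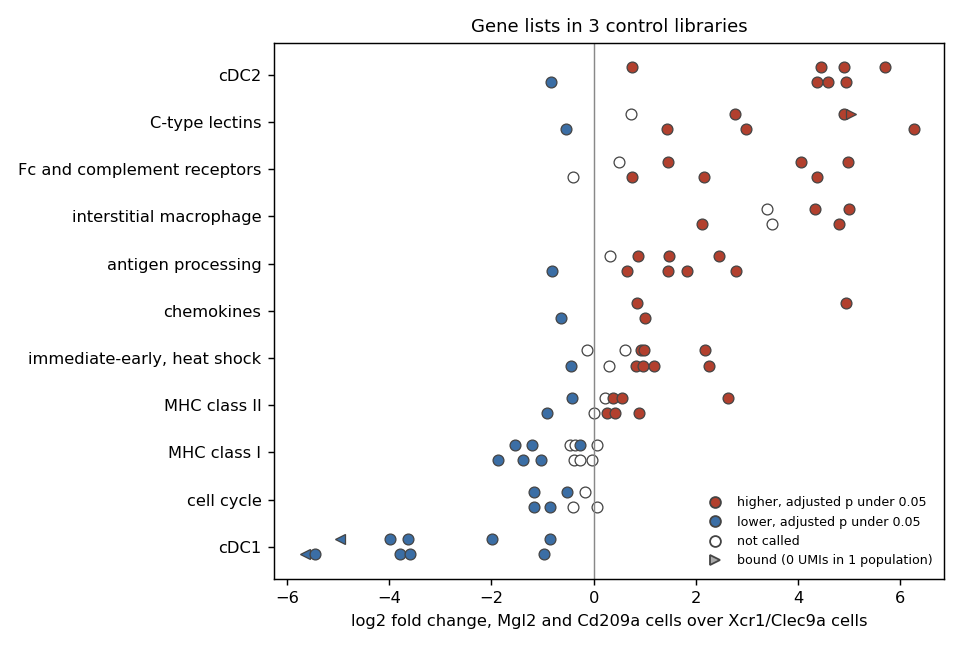
Each point is 1 tested gene of a list (rows), placed at its log2 fold change of Mgl2 and Cd209a cells over Xcr1/Clec9a cells in 3 control libraries; red is higher and blue lower at an edgeR adjusted p under 0.05, open is not called, and triangles are bounds where 1 population had 0 UMIs. The type 2 list has 7 of 8 points on the right and called, the type 1 list 10 of 10 on the left. The gates largely set both directions in advance.

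Several of the genes with the largest differences had 0 UMIs in Xcr1/Clec9a cells. Genes at 0 UMIs there were tested only because Mgl2 and Cd209a cells held them, so they could only come out higher. Il1rl1 (ST2), the receptor for the alarmin IL-33, had 88 UMIs in Mgl2 and Cd209a cells and 0 in Xcr1/Clec9a cells of the 3 libraries, at least 43.9-fold higher. Fcrls, an Fc receptor-like gene, had 78 UMIs and 0 (at least 38.9-fold higher), Cd209b 66 and 0 (at least 32.9-fold) and the paired immunoglobulin-like receptor Pilra 43 and 0 (at least 21.5-fold). Capg, an actin-capping protein, had 164 UMIs against 2, a ratio of 123 (95% counting interval 33.5 to 1023), and Mmp12 and Mrc1 each had 132 against 2, a ratio of 98.8 (26.8 to 825). Hpgd was at 263, 457 and 300 TMM-scaled CPM in old control 1, young control 1 and young control 2, against 5.23, 6.40 and 0 (log2 fold change 6.21, SE 0.36, edgeR adjusted p = 3.48e-10). In the other direction Rab7b, an endosomal GTPase, had 2 UMIs against 233, a ratio of 0.0129 (0.00155 to 0.047), and the chemokine receptor Cxcr3 had 1 against 53, a ratio of 0.0283 (0.000702 to 0.164).

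MHC class II genes differed little in size but evenly between libraries. Of 10 tested, 6 were higher and 2 lower, with a median log2 fold change of 0.31. Cd74 was at 34653, 36686 and 36598 TMM-scaled CPM in Mgl2 and Cd209a cells, against 27760, 26661 and 26444 in Xcr1/Clec9a cells of old control 1, young control 1 and young control 2 (log2 fold change 0.42, SE 0.05, edgeR adjusted p = 3.42e-06). H2-DMb2 stood out with 483, 568 and 587 TMM-scaled CPM against 85.4, 64.0 and 99.4 (log2 fold change 2.63, SE 0.16, edgeR adjusted p = 1.1e-09), while its partner in the list H2-DMb1 was lower (-0.41, SE 0.09, edgeR adjusted p = 0.00228). Of 12 tested class I genes 0 were higher and 6 were lower, with a median of -0.42. Tap1, the peptide transporter, was at 61.2, 90.5 and 69.3 TMM-scaled CPM against 188, 230 and 222 (log2 fold change -1.55, SE 0.21, edgeR adjusted p = 1.99e-05).

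Genes of antigen breakdown were higher, 7 of 9 with 1 lower, at a median of 1.45. Ctss, the cathepsin that trims the invariant chain, was at 1199, 1419 and 1333 TMM-scaled CPM in Mgl2 and Cd209a cells, against 474, 473 and 477 in Xcr1/Clec9a cells (log2 fold change 1.45, SE 0.08, edgeR adjusted p = 3.96e-10). Of 8 Fc and complement receptor genes 6 were higher and 0 lower (median 1.81). The shared Fc receptor chain Fcer1g was at 1205, 1518 and 1323 TMM-scaled CPM against 307, 313 and 272 (log2 fold change 2.15, SE 0.10, edgeR adjusted p = 1.12e-11), and the receptor Fcgr3 at 245, 140 and 274 against 12.2, 0 and 2.93 (log2 fold change 4.97, SE 0.36, edgeR adjusted p = 9.58e-09). Of 8 C-type lectins other than the 2 of the gate 6 were higher and 1, Clec12a, was lower (median 2.88).

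Chemokines and their receptors were mixed. Ccl17, a ligand of Ccr4 on T cells, was at 1958, 946 and 1878 TMM-scaled CPM in Mgl2 and Cd209a cells of old control 1, young control 1 and young control 2, against 1087, 441 and 860 in Xcr1/Clec9a cells of the same libraries (log2 fold change 1.01, SE 0.08, edgeR adjusted p = 2.4e-08). The populations overlapped across libraries, but within each library Ccl17 was higher in Mgl2 and Cd209a cells. Ccl9 was also higher (4.95, SE 0.51, edgeR adjusted p = 7.42e-07), and Cxcl16 lower (-0.63, SE 0.16, edgeR adjusted p = 0.00934). Among 8 receptors Ccr1 (log2 fold change 4.10), Ccrl2 (3.68) and Cx3cr1 (5.001) were higher and 2 were lower, one of them Ccr2 at 208, 317 and 366 TMM-scaled CPM against 679, 915 and 676 (log2 fold change -1.30, SE 0.14, edgeR adjusted p = 1.3e-06).

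Of 6 tested interstitial macrophage genes 4 were higher and 0 lower (median 3.91), namely Apoe, C1qc, Cx3cr1 and Adgre1. Apoe and C1qc rested mainly on 1 cell a library, which for C1qc held 14 of 17 UMIs in old control 1, 21 of 26 in young control 1 and 34 of 40 in young control 2. C1qb and C1qa were at log2 fold changes of 3.39 and 3.48 but missed the threshold (edgeR adjusted p = 0.0643 and 0.0648). Immediate-early and heat shock genes, which can respond to tissue digestion, were higher in 7 and lower in 1 of 11 tested (median 0.93), and cell cycle genes were higher in 0 and lower in 4 of 7 (median -0.51). Of the proliferation genes, Top2a was detected in 19.2% and Mki67 in 14.4% of the 146 control cells. The club cell genes Cbr2 and Scgb3a2 were called higher, 2 of 3 tested, with 991 and 1028 TMM-scaled CPM in Mgl2 and Cd209a cells of old control 1, which held 4 of the 7 Scgb1a1-rich cells, 152 and 61.7 in those of young control 1 and 69.3 and 3.30 in those of young control 2. Without these 7 cells Cbr2 had a log2 fold change of 0.90 (edgeR adjusted p = 0.0491), Scgb3a2 was no longer tested and 728 genes were called.

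Ear/Marco cells, gated on genes of alveolar macrophages, were compared in the same 3 libraries. Mgl2 and Cd209a cells were higher in class II genes, Ccl17 and Ccr2 and lower in every tested gene of the alveolar macrophage list. Of 7 tested type 2 genes 3 were higher (Itgam, Ltb and Clec10a) and 2 lower (Sirpa and Zeb2), with a median log2 fold change of 0.46. Of 13 tested C-type lectins 4 were higher and 6 lower (median -0.74). edgeR's quasi-likelihood test with Benjamini-Hochberg adjustment called 1334 of 2874 genes (46.4%), 677 (23.6%) higher and 657 (22.9%) lower, at a median over all genes of 0.03. All 16 tested alveolar macrophage genes were lower (median -6.66, or -5.73 with genes at 0 UMIs set to their bound). Here too the gates chose 1 population for genes of this kind and the other against them, so this direction was largely set in advance. Chil3, a chitinase-like protein, had 3 UMIs in Mgl2 and Cd209a cells and 4234 in Ear/Marco cells, a ratio of 0.00041 (8.5e-05 to 0.0012), and the protease Ctsk had 0 and 213 UMIs, at least 123-fold lower. Genes at 0 UMIs in Mgl2 and Cd209a cells were tested only because Ear/Marco cells held them.

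Of 10 class II genes 9 were higher (median 4.62, or 4.51 with bounds). Cd74 was at 42538, 44640 and 44609 TMM-scaled CPM in Mgl2 and Cd209a cells of old control 1, young control 1 and young control 2, against 3949, 1577 and 911 in Ear/Marco cells (log2 fold change 4.61, SE 0.71, edgeR adjusted p = 0.0407). H2-Aa had 15542, 15956 and 15055 against 1722, 410 and 278 and just missed the threshold (edgeR adjusted p = 0.0561), with Ear/Marco cells of old control 1 the highest of their population in both genes. Chemokine receptors were higher in 5 of 5 tested (median 4.18, or 3.604 with bounds), with Ccr2 at 255, 385 and 446 TMM-scaled CPM against 0, 0 and 5.92 (log2 fold change 6.97, SE 0.49, edgeR adjusted p = 1.61e-10). Ccl17 had 1119 UMIs and 1, a ratio of 648 (116 to 25606). Aif1, an actin-binding protein of myeloid cells, and Ccnd1, cyclin D1, had 395 and 375 UMIs against 0, at least 76.2-fold and 72.4-fold higher, and Slamf7, Itgb7, Klrd1 and Lmo1 were at least 33.0-fold higher. Genes at 0 UMIs in Ear/Marco cells were tested only because Mgl2 and Cd209a cells held them, so they could only come out higher. Lysosomal genes ran the other way, with 9 of 11 antigen processing genes lower and Ctsh higher, and Ctsd at 90.1, 45.1 and 105 TMM-scaled CPM against 3278, 4420 and 4939 (log2 fold change -5.74, SE 0.17, edgeR adjusted p = 7.63e-16).

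Ccr7/Fscn1 cells, gated on genes of mature, migratory dendritic cells, numbered 26 in control lungs, with 4 to 9 in a library, so they could be compared only with a minimum of 3 cells a library. In 4 control libraries edgeR's quasi-likelihood test with Benjamini-Hochberg adjustment called 272 of 590 genes (46.1%), 105 (17.8%) higher in Mgl2 and Cd209a cells and 167 (28.3%) lower, at a median of -0.02. This balance depends on the filter: with no filter on low counts 845 of 12428 genes were called, 574 higher and 271 lower, at a median log2 fold change of 0.99. All 11 tested genes of the mature list were lower (median -5.48). The gates chose Ccr7/Fscn1 cells for genes of this kind and kept such cells out of the others, so this direction was largely set in advance. Genes at 0 UMIs in Mgl2 and Cd209a cells were tested only because Ccr7/Fscn1 cells held them. Ccl5, a chemokine for T cells, had 7 UMIs in Mgl2 and Cd209a cells and 1344 in the 26 Ccr7/Fscn1 cells (log2 fold change -10.00, SE 0.45, edgeR adjusted p = 6.94e-07). Ccl17, higher than in the 2 other populations compared, was lower here. It averaged 1924 ± 550 against 7800 ± 1540 TMM-scaled CPM without overlap (SD, n = 4 libraries; log2 fold change -2.05, SE 0.25, edgeR adjusted p = 2.23e-04). All 3 tested chemokines, Ccl5, Ccl17 and Cxcl16, were lower. Apol7c and Il12b, a subunit of interleukin 12, had 0 UMIs against 154 and 64, at least 302-fold and 126-fold lower.

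Class II genes and class I genes went opposite ways in that comparison. Of 8 class II genes 8 were higher (median 1.11), with the editor H2-DMa at 2098, 1455, 2033 and 2041 TMM-scaled CPM in old control 1, old control 2, young control 1 and young control 2, against 421, 140, 129 and 383 (log2 fold change 2.68, SE 0.26, edgeR adjusted p = 7.94e-06). Of 7 class I genes 7 were lower (median -1.43), with H2-K1 at 1247, 1005, 1481 and 1482 TMM-scaled CPM against 3760, 2797, 4597 and 4756 (log2 fold change -1.61, SE 0.12, edgeR adjusted p = 1.23e-06). In both genes the 2 populations did not overlap. Ckb, creatine kinase B, was higher at 873, 503, 914 and 930 TMM-scaled CPM against 60.2, 0, 130 and 0 (log2 fold change 4.26, SE 0.52, edgeR adjusted p = 4.69e-05), and Alox5ap, the 5-lipoxygenase activating protein of leukotriene synthesis, was higher by 3.61 (SE 0.45, edgeR adjusted p = 5.05e-05). Without old control 2, whose 4 Ccr7/Fscn1 cells were the fewest, more genes could be tested and 529 were called.

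The share of Mgl2 and Cd209a cells was lower after LPS. It was 0.0575% (1 of 1740 barcodes) in old LPS 1, 0.364% (6 of 1650) in old LPS 2, 0.0833% (1 of 1201) in young LPS 1 and 0.160% (2 of 1247) in young LPS 2. In controls it was 2.17% (32 of 1478) in old control 1, 0.522% (8 of 1532) in old control 2, 5.03% (51 of 1014) in young control 1 and 3.98% (55 of 1383) in young control 2. The means were 0.166 ± 0.139% after LPS and 2.92 ± 1.99% in controls (SD, n = 4 each), a difference of -2.76 percentage points. The groups did not overlap, and an exact permutation test over libraries (two-sided) gave p = 0.0286, the smallest that 70 splits allow, and 0.0571 after adjustment over the 2 share comparisons. Within each age and lane the LPS library was the lower of the pair in 4 of 4 pairs, with differences of -2.11 and -0.159 points in old and -4.95 and -3.82 points in young lungs. With lane and age as a replicate block the exact permutation p was 0.125, the smallest that 4 pairs allow.

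**Figure D4:**
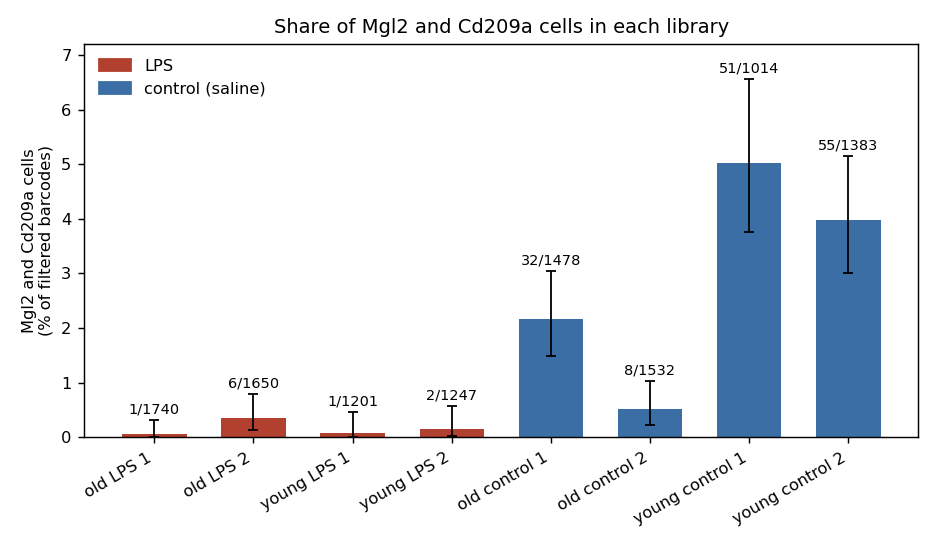
Bars give the share of filtered barcodes that were Mgl2 and Cd209a cells in each library, LPS in red and control in blue, with the exact (Clopper-Pearson) 95% binomial interval of counting error and the counts above. The 4 LPS libraries lie between 0.0575% and 0.364%, all below the 4 control libraries at 0.522% to 5.03%.

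A share depends on the other cells in the pool and on the transcripts that define the gate, so fewer cells and fewer Mgl2 or Cd209a transcripts per cell cannot be told apart. Over all filtered barcodes, with no gate, Mgl2 stood at 1.40, 2.70, 1.21 and 2.28 CPM in old LPS 1, old LPS 2, young LPS 1 and young LPS 2, against 44.2, 15.2, 101 and 83.4 CPM in old control 1, old control 2, young control 1 and young control 2. Cd209a stood at 0.399, 2.56, 0.220 and 0 CPM in the LPS libraries, against 20.5, 7.64, 59.6 and 46.0 CPM in the controls. Both genes were lower in all 4 LPS libraries than in any of the 4 control libraries. The share of all genes that separate the libraries in this way is not given. Gated cells held 343 of 381 Mgl2 UMIs in old control 1 and 99 of 155 in old control 2. In young control 1 and young control 2 they held 567 of 576 and 726 of 741. These values therefore largely restate the share and are not separate support for it. The cells that were found after LPS had a median of 8 Mgl2 UMIs, against 11 in control cells, at median depths of 5454 and 5481 UMIs. As a share of leukocyte barcodes (at least 3 of 9 leukocyte genes detected) the cells made up 2.61 ± 2.12% after LPS and 21.7 ± 16.3% in controls (SD, n = 4 each). There the groups overlapped, with old LPS 2 at 5.41% and old control 2 at 2.22%, and the exact permutation test gave p = 0.0857.

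The other gated populations did not all go the same way. Xcr1/Clec9a cells made up 0.947 ± 0.282% of barcodes after LPS and 4.28 ± 2.54% in controls, while Ccr7/Fscn1 cells made up 2.34 ± 0.761% after LPS and 0.487 ± 0.164% in controls (SD, n = 4 each). No test was made of these shares here. Of 184 barcodes with at least 2 UMIs of Mgl2 and Cd209a, 2 were left out because of the Ccr7 set, both from old control 1, and 23 because of the Xcr1 set, of which 1 was from an LPS lung.

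Between ages the share did not separate over all libraries. It was 0.777 ± 0.945% in old and 2.31 ± 2.57% in young lungs (SD, n = 4 each; exact permutation p = 0.371, also after adjustment). Among controls alone old lungs had 2.17% and 0.522% and young lungs 5.03% and 3.98%, which did not overlap, but 2 libraries against 2 cannot give an exact permutation p below 0.333. In old control 2, where the share was lowest, Ear/Marco cells made up 17.3% of barcodes, against 2.23% to 3.06% in the other controls.

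Genes of the cells were compared between old and young control lungs with a minimum of 3 cells a library, since old control 2 had 8 cells. In edgeR old lungs had lower Wfdc17 and Ifi27l2a and higher Tnf and Egr1 in these cells. Of these genes, Wfdc17 alone stayed called whichever library was left out. Few genes were called in all: edgeR's quasi-likelihood test with Benjamini-Hochberg adjustment called 11 of 2955 genes (0.372%), 5 (0.169%) higher and 6 (0.203%) lower in old lungs, with a median of 0.00 over all genes. Wfdc17, a small secreted antiprotease-like protein of myeloid cells, was at 667 and 496 TMM-scaled CPM in old control 1 and 2, against 1221 and 1314 in young control 1 and 2 (log2 fold change -1.04, SE 0.15, edgeR adjusted p = 1.06e-07). It was detected in 26 of 32 and 6 of 8 cells of old lungs, against 46 of 51 and 54 of 55 cells of young lungs. Wfdc17 passed edgeR's threshold when any 1 of the 4 libraries was left out, with log2 fold changes of -1.42 to -0.92, while DESeq2's Wald test called 1 gene, Retnla, and gave Wfdc17 an adjusted p of 0.120.

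Ifi27l2a, an interferon-induced gene, was at 330 and 172 TMM-scaled CPM in old against 615 and 609 in young control libraries (log2 fold change -1.09, SE 0.21, edgeR adjusted p = 4.56e-04), and it was not called without young control 1 or without young control 2 (edgeR adjusted p = 0.239 and 0.178). Hfe, a regulator of iron uptake, was at 159 and 108 against 387 and 320 (log2 fold change -1.27, SE 0.29, edgeR adjusted p = 0.00663), and it was not called without old control 1, young control 1 or young control 2 (edgeR adjusted p = 0.263, 0.658 and 0.107). Retnla, a secreted protein of type 2 immunity, had 1 and 0 UMIs in old control 1 and 2, against 65 and 139 in young control 1 and 2, but 60 of the 65 lay in 1 cell and 137 of the 139 in another, so its difference rests on 2 cells. The chaperone Calr (-0.87) and the poly(A) polymerase family gene Tent5a (-0.80) were the other lower genes. With 1 library left out, Calr was called only without old control 1, and Tent5a was called in none of the 4 fits. Without the Scgb1a1-rich cells the log2 fold changes of Hfe, Calr and Tent5a were much the same, at -1.19, -0.89 and -0.74, but above the threshold (edgeR adjusted p = 0.0523, 0.0575 and 0.223).

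Tnf, the cytokine, was at 165 and 86.2 TMM-scaled CPM in old against 8.42 and 27.2 in young control libraries (log2 fold change 2.92, SE 0.49, edgeR adjusted p = 6.9e-06). It was detected in 10 of 32 and 2 of 8 cells of old lungs, against 2 of 51 and 8 of 55 cells of young lungs, and 11 of the 26 UMIs in old control 1 lay in 1 cell. Egr1, an immediate-early factor, was at 457 and 172 TMM-scaled CPM against 114 and 109 (log2 fold change 1.74, SE 0.29, edgeR adjusted p = 6.9e-06), and Nfkbia, the NF-kappaB inhibitor, at 470 and 194 against 181 and 170 (log2 fold change 1.15, SE 0.26, edgeR adjusted p = 0.00663). Without old control 1 the log2 fold changes of Egr1 and Nfkbia were 0.57 and 0.09, and with 1 library left out both were called only without old control 2. With the lane as a replicate block Nfkbia was not called (log2 fold change 1.00, edgeR adjusted p = 0.0967). Without young control 1 the log2 fold change of Tnf was 2.33 and not called (edgeR adjusted p = 0.109). Cxcl15, an AE2 gene, and Cdkn1a, a cell cycle inhibitor, were the remaining higher calls, named after their values were seen since their groups overlapped. For Cxcl15, 36 of 51 UMIs in old control 1 came from 1 cell. Of 7 AE2 genes tested, 1, Cxcl15, was called and the median log2 fold change was 1.03, and Scgb1a1 stood at 60955 and 741 CPM in old against 2572 and 904 CPM in young control libraries; the part of these epithelial transcripts in the age calls was tested only through the removal of the Scgb1a1-rich cells given above. Of 10 immediate-early and heat shock genes 1, Egr1, was called (median 0.49). Of 10 MHC class II, 9 C-type lectin and 9 type 2 genes tested, 0 were called in edgeR's quasi-likelihood test, with medians of -0.11, 0.04 and -0.04.

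**Figure D5:**
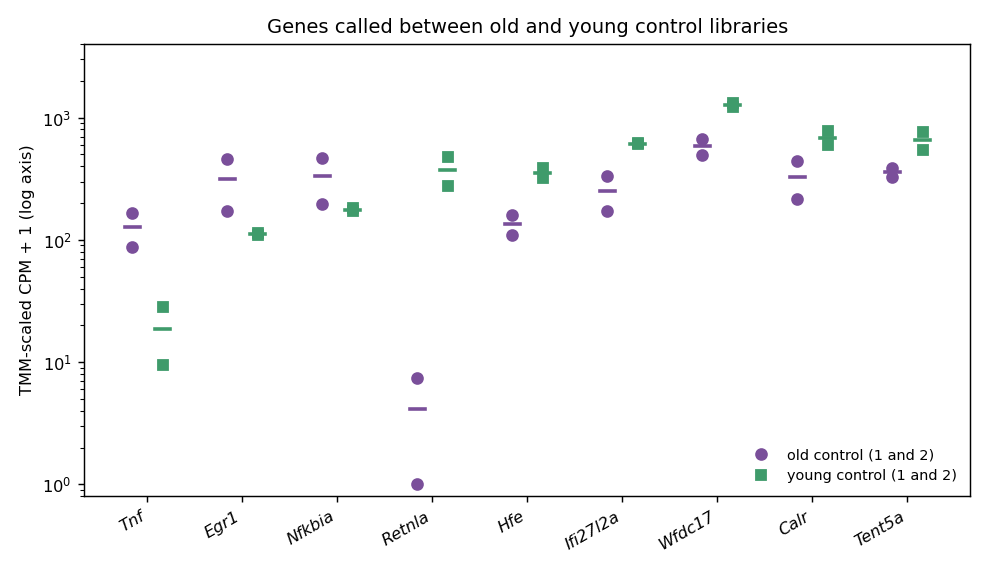
TMM-scaled CPM + 1 on a log axis of the 9 genes called between ages whose groups did not overlap, in old control 1 and 2 (circles) and young control 1 and 2 (squares); short lines are the means of the 2 libraries. Wfdc17 lies at 667 and 496 in old and 1221 and 1314 in young control libraries, while the Retnla points of young lungs rest on 1 cell each.

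After LPS only 10 cells with 53073 UMIs were left, so their genes are given as sums with exact 95% Poisson intervals of counting error, and cells of 4 libraries stand together. Ccl17 was at 1394 CPM (1095 to 1750) after LPS and 1430 CPM (1350 to 1513) in controls. Dusp1, an immediate-early phosphatase, was at 565 CPM (381 to 807) and 138 CPM (114 to 166), with UMIs in 9 of 10 cells after LPS and 67 of 146 cells in controls. Itgam was at 264 CPM (144 to 443) and 103 CPM (82.6 to 128), detected in 8 of 10 and 61 of 146 cells, and Ccl9 at 415 CPM (260 to 628) and 144 CPM (119 to 172), detected in 7 of 10 and 57 of 146 cells. Ms4a4c, a gene of the monocyte list, was at 301 CPM (172 to 490) and 51.6 CPM (37.4 to 69.5). In these 4 genes, Dusp1, Itgam, Ccl9 and Ms4a4c, the intervals did not overlap, but counting intervals leave out the spread between libraries and between cells. For Ms4a4c, 6 of the 16 UMIs after LPS lay in 1 cell. The 4 genes were chosen after their values were seen, and the share of all genes whose intervals did not overlap is not given. Old LPS 2 gave 6 of the 10 cells, and in its cells and in the other 4 these genes stood at 585 and 535 CPM (Dusp1), 308 and 194 CPM (Itgam), 431 and 389 CPM (Ccl9) and 308 and 292 CPM (Ms4a4c).

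Class II transcripts stayed abundant, with Cd74 at 25154 CPM (23823 to 26540) after LPS and 32620 CPM (32234 to 33011) in controls, and H2-Aa at 10514 CPM (9659 to 11424) and 11463 CPM (11235 to 11696). Cd209b and Mki67 had 0 UMIs in the 10 cells, which allows up to 69.5 CPM, beside 90.04 CPM (70.8 to 113) and 110 CPM (89.0 to 135) in controls. The limit leaves out the spread between cells, and few control cells held either gene. Cd209b was detected in 32 of 146 control cells. Mki67 was in 4 of 32, 1 of 8, 8 of 51 and 8 of 55 cells of old control 1, old control 2, young control 1 and young control 2. Stmn1, a gene of dividing cells, had 3 UMIs in 1 of 10 cells, against 303 UMIs in 34 of 146 cells. Several high sums came from single cells: 119 of 157 Lyz2 UMIs, 50 of 51 C1qb UMIs, 25 of 26 Ccl12 UMIs, 18 of 19 Cebpb UMIs, 10 of 10 Cd14 UMIs and 8 of 9 Isg15 UMIs each lay in 1 cell. Cxcl10, a chemokine induced by interferon, had 9 UMIs, all in 1 cell, and 0 in the 146 control cells.

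No LPS library reached 10 cells and old LPS 2 alone held 3 or more, so no test of genes between LPS and control is given. Tubb5, a tubulin gene, stood at 151 CPM over the 10 cells after LPS (92.3 CPM in the 6 cells of old LPS 2 and 243 CPM in the other 4), against 542, 721, 741 and 977 CPM in old control 1, old control 2, young control 1 and young control 2. Hmgb2, a chromatin protein gene, stood at 170 CPM after LPS (123 and 243 CPM in the same 2 sets of cells), against 510, 500.4, 541 and 721 CPM in the 4 control libraries. Both sets of LPS cells were below every control library in these 2 genes, on 8 and 9 UMIs in all. The 2 genes were chosen after their values were seen, and the share of all genes with this pattern is not given. Single cells held 29 of 36 Tubb5 UMIs in old control 2 and 36 of 97 Hmgb2 UMIs in old control 1. Each gene was detected in 5 of 10 cells after LPS. In the 4 control libraries Tubb5 was in 25 of 32, 3 of 8, 35 of 51 and 44 of 55 cells. Hmgb2 was in 20 of 32, 5 of 8, 33 of 51 and 29 of 55.

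Other genes differed between old LPS 2 and the remaining LPS cells. S100a4 stood at 1809 CPM (1465 to 2209) over the 10 cells, at 1200.3 CPM in old LPS 2 and 2770 CPM in the other 4 cells, beside 2006 CPM (1911 to 2105) in controls. Foxp1 and Rsrp1 had 0 UMIs in old LPS 2 but 4 and 5 UMIs in the other 4 LPS cells, which is 194 and 243 CPM, beside 147 to 223 CPM and 120 to 200 CPM in the control libraries. Epsti1, an interferon-induced gene, had 8 UMIs in 4 of the 6 cells of old LPS 2 and 0 in the other 4 cells. These genes were chosen after their values were seen.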

How the data were processed

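Raw UMI counts per gene and barcode, 1 table per group and lane, were used as deposited by the authors, with no normalization. The submitters' processing notes name Cell Ranger 3.1.0, bcl2fastq, STAR, Seurat 3.1 and 3.1.5, R 3.6.3 and build mm10; no role is stated for any of them, nor how the hashtags were read out. The tables hold 31053 genes, 30934 of them with a symbol in GENCODE M21, and 4 hashtag rows, which were kept apart. The cells and all 42 gene lists were chosen with earlier results of these data known. Of the list genes, 3 were not analysed here.

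UMIs were summed per library and population, filtered with filterByExpr, scaled by TMM and fitted in edgeR 4.0.16 (R 4.3.3; robust glmQLFit and glmQLFTest), with p-values adjusted over all genes tested at a threshold of 0.05; DESeq2 1.42.0 was an alternative. SEs were taken from the size of the log2 fold change and its F statistic. The minimum of 10 cells a library left no fit for Ccr7/Fscn1 cells and age, where values alone had been foreseen and a minimum of 3 cells was used, and none for LPS, where sums are given. Genes named have the 8 highest or lowest log2 fold changes of those called, given 50 CPM or more in the higher group and either 1 direction in all libraries or groups that do not overlap; list genes are the most abundant called ones, and others were chosen after their values were seen. The scripts were tested on simulated counts. Same-numbered libraries shared a lane, so a replicate block was an alternative. Free RNA was not removed and no doublet caller was run; an alternative left out cells with under 90% of hashtag counts in 1 hashtag or in the top 3% of UMIs. Of barcode sequences, 2 were on both lanes and 0 of these were members. P-values measure the spread between libraries, which came from 2 experiments. Comparisons of populations and of LPS with control mix libraries of both ages, and the share test between ages mixes LPS and control libraries. The fits with Xcr1/Clec9a and Ear/Marco cells rest on old control 1 and young control 1, which shared a lane, and young control 2. Intervals and floors cover counting error only. Shares were tested with scipy 1.17.1.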

Additional observations from a re-analysis of the deposited data

Results flagged for a closer look

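In 50 groups of 4 libraries, 7 held a library whose gap to its nearest neighbour was unusually large against the range of the group, where chance gives about 1 in 20. Ear/Marco cells made up 17.3% of barcodes in old control 2, far from the other controls, and 2.30% in old LPS 2, far from the other LPS libraries. Cd209a over all filtered barcodes stood at 2.56 CPM in old LPS 2, the LPS library with 6 of the 10 Mgl2 and Cd209a cells. Within Mgl2 and Cd209a cells of controls, Apoe stood at 0 CPM in old control 2, C1qb at 105 CPM in old control 1 and Cd209d at 60.05 CPM in old control 2, which had 8 cells. Cd209f stood at 103 CPM in young control 2, where all 34 of its UMIs came from 1 cell.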

How the results depend on the processing

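The lower share after LPS kept its direction under every alternative run, with a difference of -3.56 to -2.06 points when 1 library was left out, and the difference between ages was -2.28 to -0.630 points; with the replicate block the exact permutation p was 0.125 for LPS and 0.375 for age. Leaving out 1 library, called genes ranged from 239 to 619 against Xcr1/Clec9a cells, from 1067 to 1503 against Ear/Marco cells, from 215 to 529 against Ccr7/Fscn1 cells and from 4 to 29 between ages (4 without young control 1, 29 without old control 2). DESeq2's Wald test called 286, 737 and 1 genes against Xcr1/Clec9a cells, against Ear/Marco cells and between ages. With no filter on low counts 845 genes were called against Ccr7/Fscn1 cells. With the replicate block 14 genes were called between ages, and without it 655, 1359 and 286 against Xcr1/Clec9a, Ear/Marco and Ccr7/Fscn1 cells. Without cells of at least 1% Scgb1a1, an alternative chosen after seeing the data, 7 genes were called between ages. The causes were not tested. For the 57 picks with the highest or lowest called log2 fold changes, 639 values under all alternatives kept direction and call, 38 kept direction but lost the call and 0 reversed. These picks were made for large called changes, so the counts are a description and cover no other gene named here. Fits in which a gene was not tested are not counted, such as Tnf without old control 1. Genes between LPS and control have no test and so no alternative: no LPS library held 10 cells, and the planned minimum of 3 left old LPS 2 alone. Their values rest on 10 cells with 53073 UMIs.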

Other observations

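Further lists of the comparison with Xcr1/Clec9a cells are given here, each in 3 control libraries (old control 1, young control 1 and young control 2) and in TMM-scaled CPM. Of 17 transcription factors 8 were higher and 4 lower in Mgl2 and Cd209a cells (median log2 fold change 0.72, against -0.01 over all genes tested). Runx1 was at 251, 169 and 129, against 48.8, 25.6 and 38.0 (log2 fold change 2.22, SE 0.26, edgeR adjusted p = 2.78e-06), and Id2, an inhibitor of E proteins in dendritic cell development, at 1224, 1049 and 1096, against 1648, 1638 and 1729 (log2 fold change -0.58, SE 0.08, edgeR adjusted p = 1.38e-05). Of 15 cytokine receptor genes 5 were higher and 1 lower (median 0.37), with Csf1r at 110, 103 and 139, against 10.5, 0 and 14.6 (log2 fold change 3.50, SE 0.39, edgeR adjusted p = 1.71e-06). Of 7 costimulation genes 0 were higher and 3 lower (median -0.25), with Cd86, a ligand of CD28 on T cells, at 61.2, 28.8 and 89.1, against 294, 301 and 307 (log2 fold change -2.27, SE 0.24, edgeR adjusted p = 9.31e-07). The 2 populations did not overlap in any of these 4 genes.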
